A study of Mus musculus with 6 samples.

Results

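The miRNAs described here are 5 mature mouse miRNAs known from work on lipid, insulin and mTOR biology, namely mmu-miR-378a-3p, mmu-miR-7a-5p, mmu-miR-33-5p, mmu-miR-122-5p and mmu-miR-375-3p (written without the species prefix below). They were chosen by name, as the array entries with exactly these miRNA names that are not control spots, and they are 5 of the 1247 mouse miRNAs on the array. The samples were mProx24 cells, a line of mouse kidney proximal tubular cells (strain given as C57B6), and the RNA of each of 6 conditions was hybridised to 1 single-colour Agilent miRNA array. The High glucose culture was kept at 20% oxygen with high glucose. The High FFAs culture (palmitate below) was kept at 20% oxygen with 150 µM palmitate bound to 0.15% bovine serum albumin for 9 h. The Hypoxia culture was kept at 1% oxygen for 12 h. The Triple stimuli + Rapamycin culture had low oxygen, high glucose and palmitate together and was pre-treated for 12 h with 0.4 µg/ml rapamycin, an inhibitor of mTORC1. The Triple stimuli culture had the same 3 stimuli without rapamycin. The Control culture was kept at 20% oxygen with none of these. All 6 came from 1 cell line in serum-containing medium, albumin is given only with palmitate, and the albumin and palmitate cannot be told apart. With 1 array per condition, no comparison of 2 conditions has a replicate check or a p-value.

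In animals, a miRNA guides a repressor complex to messenger RNAs that pair with its seed, the bases at positions 2 to 8 from its 5′ end. In mammals, miR-33 is carried in an intron of Srebf2, the gene of the sterol-sensing factor SREBP2, and represses the cholesterol exporter Abca1. Liver cells are known for miR-122, which is needed for normal cholesterol metabolism in that organ. Pancreatic islets are known for miR-375, which restrains insulin secretion, and for miR-7, which represses components of insulin and mTOR signalling. miR-378a lies in an intron of Ppargc1b, which encodes a coactivator of mitochondrial genes, and is linked to fatty acid metabolism.

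The sequences below show how close the detected miRNA of the miR-7 family is to its near copy, and which bases the array probes read. RefSeq (GRCm38.p6) names 2 of the 5 miRNAs in the table used here. Seed bases are in capitals in the miRNAs, 5′ to 3′.
miR-7a-5p: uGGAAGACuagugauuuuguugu
miR-7b-5p: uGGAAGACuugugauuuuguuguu
miR-33-5p: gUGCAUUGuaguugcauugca
The first 23 bases of miR-7a-5p and miR-7b-5p differ by 1 substitution, A10U, counted from 1 at the 5′ end with the base of miR-7a-5p first. They share their seed. No other miRNA on the array with a RefSeq entry shares the seed of miR-33-5p. miR-7a-5p is encoded on 2 hairpins, Mir7-2 (chr7:78888277-78888373, plus strand) and Mir7-1 (chr13:58392779-58392886, minus strand), the second within the span of Hnrnpk. Mir33 (chr15:82198122-82198190, plus strand) lies within the span of Srebf2. Mir375 (chr1:74900658-74900721, minus strand) lies within the span of no annotated gene in the table.

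Each miRNA has 2 probes, DNA oligos complementary to it, each printed as 20 spots per array. In the probes of the miR-7 pair below, the capital marks the base opposite position 10.
miR-7a-5p, longer probe: acaacaaaatcacTagtcttcc
miR-7b-5p, shorter probe: acaacaaaatcacAagtcttcc
The probes of miR-33-5p and miR-375-3p are shown because they gave no signal above background.
miR-33-5p, longer probe: tgcaatgcaactacaatgcac
miR-375-3p, longer probe: tcacgcgagccgaacg
The probes of miR-7a-5p are 21 and 22 bases long, and those of miR-378a-3p 13 and 14 bases.

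Over the whole array, 154 miRNAs were detected on all 6 arrays and 198 on at least 1, where detected means that at least 0.5 of the spots of any probe of the miRNA were marked well above background by the scanner software. Between 162 and 194 miRNAs were detected per array, and no spot was saturated. Precision is limited by the number of arrays. The 75th percentile of the 281 probes detected on every array was 382 on the Triple stimuli + Rapamycin array, the brightest, and 295 on the Control array, the dimmest. Levels called scaled were divided by this brightness relative to its geometric mean over the 6 arrays. Of 11 kidney tubule miRNAs looked for, 7 were detected on all 6 arrays (5 members of the miR-30 family, a to e, with the Hox-cluster miRNAs miR-10a-5p and miR-10b-5p). The other 4 were detected on none, namely miR-204-5p, miR-215-5p, miR-192-5p and miR-194-5p. Of the 11, only miR-192-5p, miR-194-5p and miR-215-5p had been listed for the proximal tubule itself, and the rest for kidney or kidney epithelium. miR-192-5p is known as abundant in mouse kidney cortex, and it was not detected here. The deposited table of processed values gives the High glucose values under High FFAs and the reverse. The High glucose column equalled the High FFAs scanner file, within 0.1% after 1 factor, for 70.9% of miRNAs and its own file for 0%. For the High FFAs column these shares were 70.6% with the High glucose file and 0% with its own. Labels here follow the scanner files. Every value given for high glucose or palmitate may therefore belong to the other of these conditions, and the high glucose and palmitate differences then exchange places. Detection, the splits, and the counts and ranking over all 6 arrays are also given without these arrays, a setting chosen after seeing the data.

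The line held 2 of the 5 miRNAs. miR-7a-5p was detected on all 6 arrays, with 235 of 240 spots well above background. miR-378a-3p was detected on 5 arrays, all but palmitate, with 110 of 240 spots well above background. miR-33-5p, miR-122-5p and miR-375-3p were detected on no array, with 0 of 240 spots each. Without the high glucose and palmitate arrays, the same 2 miRNAs were the ones detected. These counts describe bulk RNA, in which fewer cells with a miRNA and less of it per cell cannot be told apart.

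For the undetected miRNAs, the software's summed signal per miRNA lay around 0 on every array. The summed signal of miR-33-5p ran from -0.856 to -0.561 over the 6 arrays. That of miR-122-5p ran from -1.15 to 0.283. That of miR-375-3p ran from -1.85 to -0.248, with a software error of 1.78 to 1.90 on each array. The highest single spot was 10.8 for miR-33-5p, 10.6 for miR-122-5p and 9.60 for miR-375-3p, all under the lowest mean signal of a detected probe on any array, 19.5. These miRNAs have an upper bound only: they were not well above background at this brightness, and their absence from the cells was not shown.

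**Figure D1:**
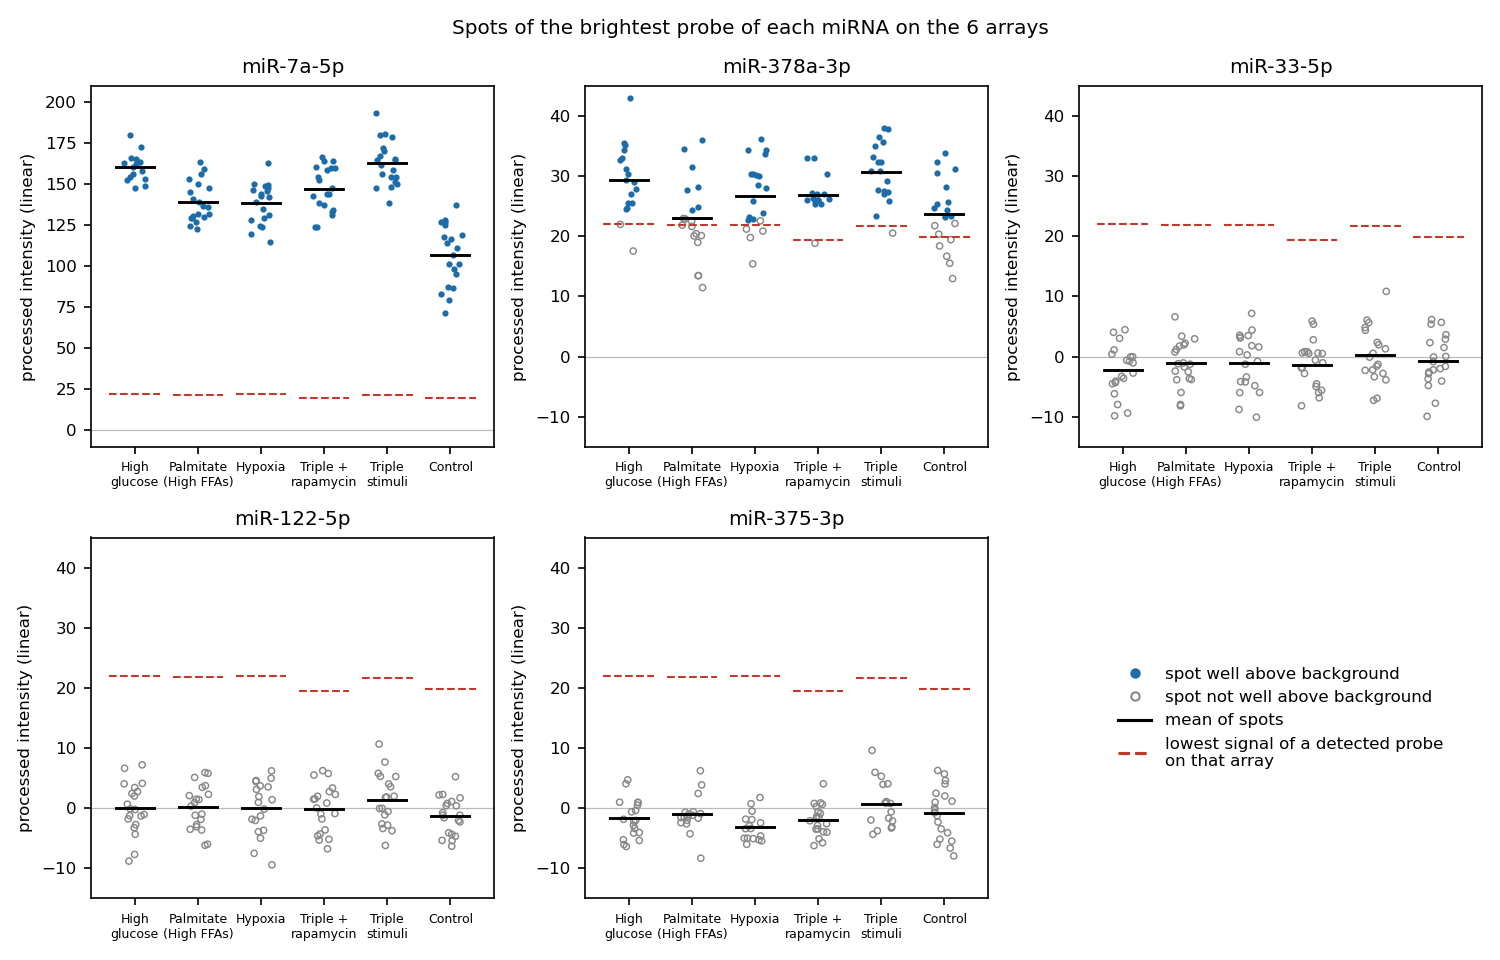
Processed intensity on a linear scale (vertical axis) of each spot not marked as an outlier, for the brightest probe of each of the 5 miRNAs on the 6 arrays; black lines are means of spots and red dashed lines the lowest mean signal of a detected probe on that array. All spots of miR-7a-5p lie above the dashed line on each array, those of miR-378a-3p straddle it, and those of the other 3 miRNAs stay below it. The vertical axis of the miR-7a-5p panel has its own range.

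Other miRNAs known from pancreas, neurons and liver were looked for beside miR-375-3p and miR-122-5p. Of 6 miRNAs of pancreas and neurons, miR-375-3p included, 0 were detected on any array. The others were miR-124-3p, miR-9-5p and miR-184-3p, with miR-217-5p and miR-216a-5p, which are known from acinar pancreas. The islet miRNA miR-7a-5p was not on that list and was detected on all 6 arrays. Of 3 hepatocyte miRNAs, both arms of miR-122 included, 0 were detected. The third was miR-802-5p, a miRNA linked to impaired insulin sensitivity in mouse liver.

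The other arms and near copies of the 5 miRNAs gave no detection either. None of 6 partner arms and none of 5 near copies was detected on any array. The partner arm with the highest summed signal was miR-7a-1-3p, from the Mir7-1 hairpin, at 4.88 to 6.48 with 6 of 240 spots well above background. Among near copies, miR-7b-5p, which differs from miR-7a-5p by the A10U substitution shown above and 1 further base at its 3′ end, had summed signals of 2.02 to 2.96 and 6 of 240 spots well above background. miR-378d had summed signals of 1.44 to 3.69 and 7 of 240 spots well above background. The probes of miR-7a-5p and miR-7b-5p differ opposite position 10, and how far each also reads the other miRNA was not tested.

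miR-7a-5p, the repressor of mTOR and insulin signalling components, had a mean spot signal on its brighter probe of 160.4 with high glucose, 139 with palmitate, 138 in hypoxia, 147 with the triple stimuli and rapamycin, 163 with the triple stimuli and 107 in control cells. Of 20 spots of this probe, 15 on the high glucose array and all 20 on the Control array were used, the rest being marked as outliers. The spots used ranged from 148 to 180.0 on the high glucose array and from 71.5 to 137 on the Control array, so these did not overlap before scaling. How many other miRNAs had no such overlap was not counted. After scaling the spots used overlapped, at 139 to 169 on the high glucose array and 81.9 to 157 on the Control array. Spots ran from 123 to 164 with palmitate, from 115 to 163 in hypoxia, from 124 to 167 with the triple stimuli and rapamycin and from 139 to 193 with the triple stimuli. The Control array was the lowest and the Triple stimuli array the highest, before any scaling. The Control array was also the dimmest over all detected probes, and the part of that in the remaining difference after scaling was not tested. After scaling for array brightness, the level was 151 with high glucose, 148 with palmitate, 139.6 in hypoxia, 130.4 with the triple stimuli and rapamycin, 159 with the triple stimuli and 122 in control cells. By this scaling the order of the arrays was Triple stimuli, High glucose, palmitate, Hypoxia, Triple stimuli + Rapamycin and Control. It changed with other scalings, as given below. Between neighbours in this order the log2 gaps were 0.08, 0.02, 0.09, 0.10 and 0.09, with spot errors of 0.03, 0.03, 0.04, 0.04 and 0.06. The gaps from High glucose to palmitate and from Triple stimuli + Rapamycin to Control were under 2 spot errors, and spot errors leave out any spread between cultures.

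The dimmer probe of miR-7a-5p gave mean signals of 40.6 with high glucose, 34.5 with palmitate, 38.5 in hypoxia, 40.7 with the triple stimuli and rapamycin, 45.7 with the triple stimuli and 28.4 in control cells. On this probe too the Control array was the lowest and the Triple stimuli array the highest. It was well above background in 19 or 20 of 20 spots on 5 arrays and in 16 of 20 on the Control array. The software's summed signal for miR-7a-5p, which combines its probes, was 56.8 ± 5.06 with high glucose, 49.2 ± 4.49 with palmitate, 50.0 ± 4.47 in hypoxia, 53.1 ± 4.69 with the triple stimuli and rapamycin, 59.0 ± 5.15 with the triple stimuli and 38.2 ± 3.66 in control cells (± the software's own error). In the authors' deposited table, miR-7a-5p stood at 2.19 under High glucose, 1.94 under High FFAs, 2.20 under Hypoxia, 1.84 under Triple stimuli + Rapamycin, 2.17 under Triple stimuli and 1.81 under Control. In the authors' deposited table the Control value was the lowest, and the Hypoxia value, not the Triple stimuli value, the highest. These values come from the same scanned arrays.

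Relative to the Control array, miR-7a-5p had log2 differences (scaled level, standard error over spots) of 0.30 (0.06) with high glucose, 0.28 (0.06) with palmitate, 0.19 (0.06) in hypoxia and 0.09 (0.06) with the triple stimuli and rapamycin. The difference with the triple stimuli was 0.38 (0.06), a fold of 1.30. The scaling changed which array was highest. Palmitate was above the triple stimuli with the 75th percentile over all probes, 0.47 against 0.23. It was also above with the median of detected probes (0.35 against 0.21) and quantile normalisation (0.31 against 0.19). With no scaling the triple stimuli were higher (0.61 against 0.38), as with the other changes of background, probe summary and spots. All 5 comparisons share the 1 Control array, so a low value on it would enter each of them. A call of higher or lower needed detection on both arrays and a difference of 1.5-fold or more that also exceeded 2 spot errors. By this rule 0 of the 2 detected miRNAs were called in any of the 6 comparisons made. Over all miRNAs detected on both arrays, the share called higher was 6.79% with high glucose, 0% with palmitate, 0% in hypoxia, 5.59% with the triple stimuli and 7.32% with the triple stimuli and rapamycin. The share called lower was 0% with high glucose, 2.58% with palmitate, 1.85% in hypoxia, 0% with the triple stimuli and 1.83% with the triple stimuli and rapamycin.

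Set against all miRNAs detected on both arrays, the difference of miR-7a-5p stood near the upper end without being extreme. It exceeded the median miRNA by 0.36 on the log2 scale with high glucose, 0.31 with palmitate, 0.30 in hypoxia, 0.37 with the triple stimuli and 0.20 with the triple stimuli and rapamycin. A larger difference was seen for 11.7% of miRNAs with high glucose, 4.52% with palmitate, 7.41% in hypoxia, 11.8% with the triple stimuli and 20.1% with the triple stimuli and rapamycin. Of the 154 miRNAs detected on all 6 arrays, 10 (6.49%) were above the Control array on each of the other 5, and miR-7a-5p was 1 of these. Without the high glucose and palmitate arrays, 19 (12.3%) were above the Control array on each of the other 3, miR-7a-5p again included. Scaling to the median of detected probes put the difference with the triple stimuli and rapamycin at -0.02, and no scaling put it at 0.46.

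The Triple stimuli + Rapamycin and Triple stimuli cultures differed by label only in rapamycin, the inhibitor of mTORC1. No measure of mTORC1 activity is among these data. miR-7a-5p had a log2 difference of -0.29 (spot error 0.04) between the arrays with and without rapamycin, a fold of 0.819. Its dimmer probe gave -0.31. Relative to the median miRNA the difference was -0.21, and 11.4% of 184 miRNAs had a lower one. miR-378a-3p had a difference of -0.33 (spot error 0.07), a fold of 0.798, and 8.15% of miRNAs had a lower one. Neither reached 1.5-fold. Of all miRNAs detected on both arrays, 2.17% were called higher and 1.63% lower. With scaling to the 75th percentile over all probes, the differences were -0.06 for miR-7a-5p and -0.10 for miR-378a-3p.

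**Figure D2:**
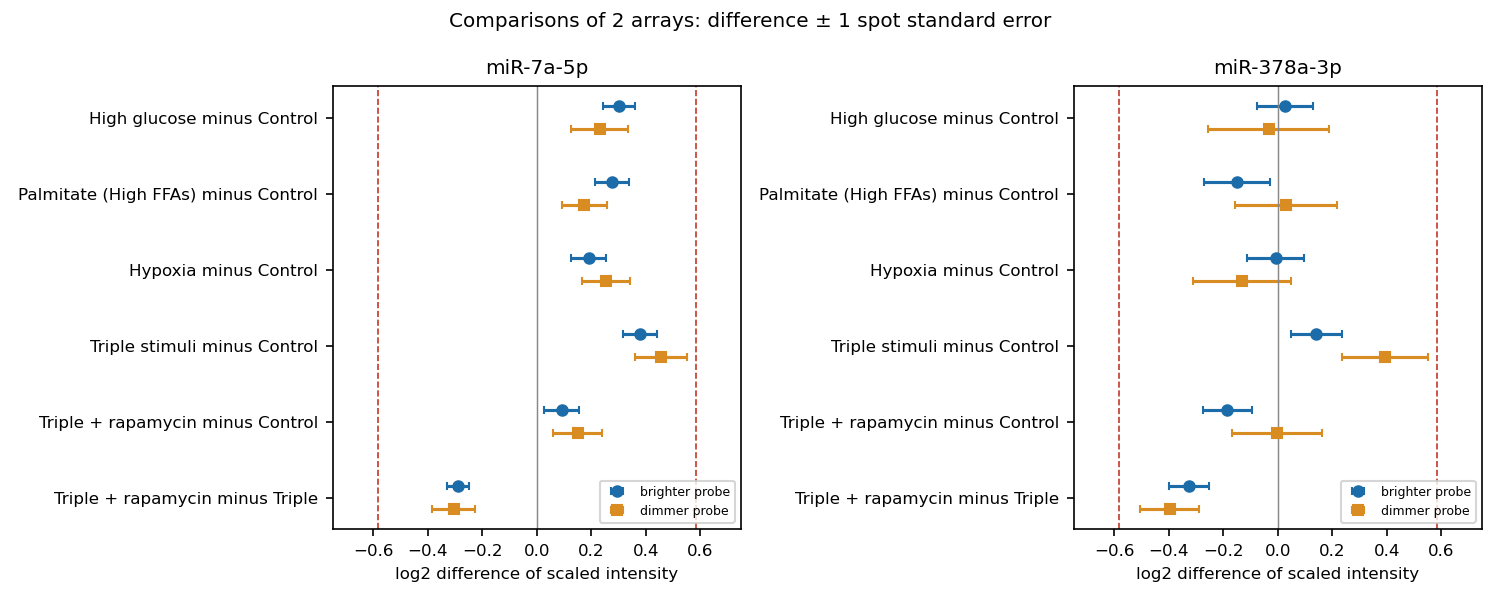
Log2 difference of scaled intensity (horizontal axis) between 2 arrays for both probes of miR-7a-5p and miR-378a-3p in the 6 comparisons; bars are 1 standard error over spots and red dashed lines mark a 1.5-fold difference. For miR-7a-5p both probes lie above 0 in each comparison with Control and below 0 in the comparison of rapamycin with the triple stimuli, and no point of the brighter probes reaches a dashed line.

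miR-378a-3p, the Ppargc1b intronic miRNA, lay close to the detection limit. Its brighter probe had mean spot signals of 29.4 with high glucose, 23.0 with palmitate, 26.7 in hypoxia, 26.9 with the triple stimuli and rapamycin, 30.6 with the triple stimuli and 23.7 in control cells. Of 20 spots, 16 were well above background with high glucose, 7 with palmitate, 15 in hypoxia, 17 with the triple stimuli and rapamycin, 18 with the triple stimuli and 12 in control cells. Before scaling the palmitate array was the lowest and the Triple stimuli array the highest, and the spots of all 6 arrays overlapped. Scaled levels were 27.6 with high glucose, 24.5 with palmitate, 27.0 in hypoxia, 23.9 with the triple stimuli and rapamycin, 29.9 with the triple stimuli and 27.1 in control cells. After scaling the Triple stimuli + Rapamycin array was the lowest. Its dimmer probe was detected on no array, with 2 to 9 of 20 spots well above background.

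The call of miR-378a-3p as detected depends on the share of spots asked for. It was detected on 6 arrays when 0.25 of the spots were asked for and by the software's own call, on 5 with 0.5 and on 4 with 0.75. The software's summed signal was 13.3 ± 2.16 with high glucose, 11.1 ± 2.06 with palmitate, 11.9 ± 2.03 in hypoxia, 13.0 ± 2.02 with the triple stimuli and rapamycin, 15.1 ± 2.14 with the triple stimuli and 10.9 ± 2.00 in control cells. In the authors' deposited table miR-378a-3p stood between 0.452 under Triple stimuli + Rapamycin and 0.557 under Triple stimuli. In the authors' deposited table miR-33-5p, miR-122-5p and miR-375-3p stood at the lowest value of each column.

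Against the Control array, miR-378a-3p had log2 differences of 0.03 (spot error 0.10) with high glucose, -0.01 (0.10) in hypoxia, 0.14 (0.09) with the triple stimuli and -0.18 (0.09) with the triple stimuli and rapamycin. With palmitate, where it was not well above background, its measured values differed by -0.15 (spot error 0.12). With high glucose its sign turned under 6 of 9 alternative treatments of the intensities, in hypoxia under 5, with palmitate and with the triple stimuli under 2 each, and with the triple stimuli and rapamycin under 1.

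Splitting the 6 arrays by stimulus gave 3 arrays on each side, and the other treatments were not balanced between the sides. In every split the Triple stimuli and Triple stimuli + Rapamycin arrays were on the side with the stimulus, and the Control array on the other. The splits therefore share arrays, and none tells its stimulus apart from the combined stimuli or from rapamycin. Across the 3 arrays at 1% oxygen miR-7a-5p had a log2 scaled level of 7.16 ± 0.15, and across the 3 at 20% oxygen 7.13 ± 0.17 (SD, n = 3 each). The difference was 0.03 (SE 0.12, limma with Benjamini-Hochberg adjusted p = 0.986 over 154 miRNAs), with an exact two-sided permutation p of 0.9. Without the high glucose and palmitate arrays, which leaves Control alone at 20% oxygen, it was 0.22, a value given with no test. The 3 arrays at 1% oxygen also lay in a slide row of their own, so the row and the oxygen level cannot be told apart. Across the 3 arrays labelled high glucose the level was 7.19 ± 0.15, and across the others 7.09 ± 0.14. The difference was 0.10 (SE 0.11, limma adjusted p = 0.735, exact permutation p = 0.4). Across the 3 arrays labelled palmitate the level was 7.18 ± 0.15, and across the others 7.10 ± 0.15. The difference was 0.09 (SE 0.11, limma adjusted p = 0.938, exact permutation p = 0.6). Without the high glucose and palmitate arrays these last splits are the same comparison, and miR-7a-5p differed by 0.14 (SE 0.14, limma adjusted p = 0.668).

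For miR-7a-5p the arrays on both sides overlapped in each split, as they did for most miRNAs. Of all 154 miRNAs, 11% did not overlap for oxygen, 29.2% for high glucose and 7.79% for palmitate. An interval of 2 SE ran from -0.21 to 0.26 for oxygen, from -0.11 to 0.31 for high glucose and from -0.14 to 0.31 for palmitate, so differences of these sizes were not excluded in either direction. With 3 arrays against 3, the smallest exact two-sided permutation p is 0.1. Over all 154 miRNAs limma called 0% higher and 0% lower for oxygen, 8.44% higher and 1.3% lower for high glucose, and 0% higher and 0% lower for palmitate. The counts at an unadjusted limma p under 0.05 were 7 for oxygen, 30 for high glucose and 5 for palmitate. These arrays hold different treatments within each side, and nothing in the labels says that they stand for separate cultures of 1 condition, so the limma p-values measure the spread between arrays of unlike treatment.

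miR-378a-3p was outside this fit, since it was not detected on the palmitate array. In a limma fit over the 198 miRNAs detected on at least 1 array, with the palmitate array at its measured value, its difference was 0.02 (SE 0.10, adjusted p = 0.972) for oxygen. It was 0.05 (SE 0.10, limma adjusted p = 0.883) for high glucose and -0.07 (SE 0.10, limma adjusted p = 0.966) for palmitate. Exact permutation p-values for miR-378a-3p were 1, 0.8 and 0.5 in the same order. Its difference was -0.017 in each split without the high glucose and palmitate arrays, a value with no test.

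**Figure D3:**
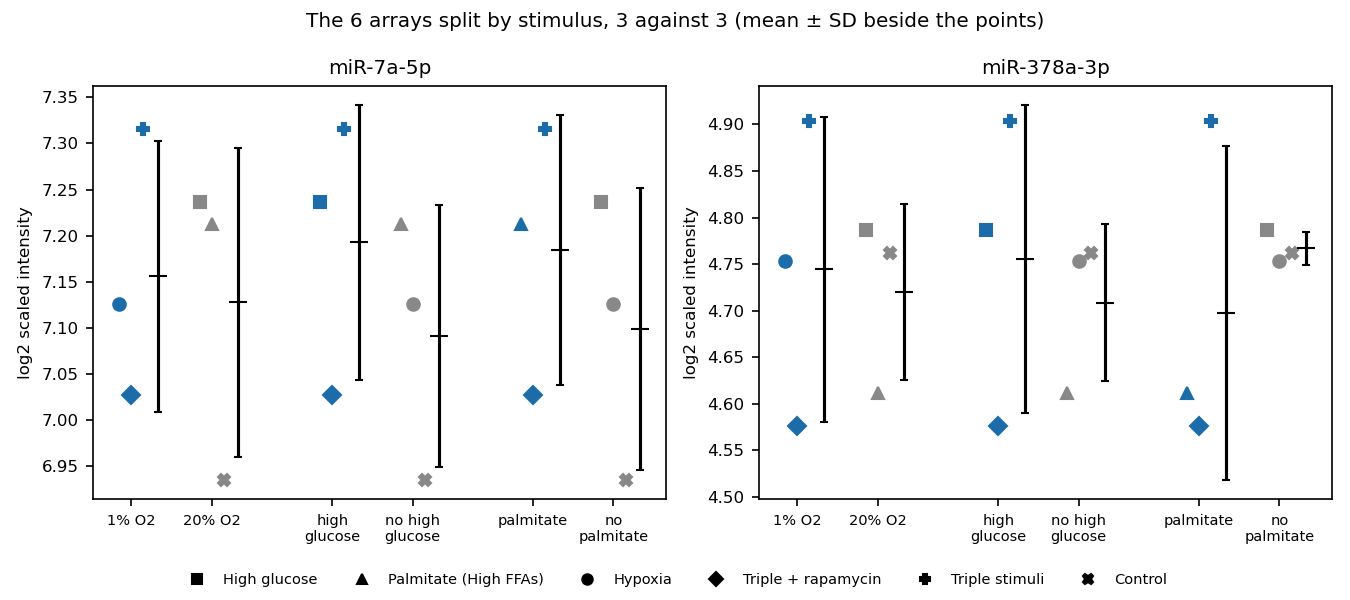
Log2 scaled intensity (vertical axis, not starting at 0) of miR-7a-5p and miR-378a-3p on each of the 6 arrays, split 3 against 3 by oxygen, by high glucose and by palmitate, with the mean and SD beside the points; marker shapes are the conditions. The 2 sides overlap in each split for both miRNAs. Of the 154 miRNAs detected on all 6 arrays, 11% did not overlap for oxygen, 29.2% for high glucose and 7.79% for palmitate. miR-378a-3p on the palmitate array is plotted at its measured value although it was not detected there.

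Other miRNAs with known roles in lipid, insulin and mTOR biology were looked at in the same way. The lists were 16 miRNAs linked to lipid metabolism, 14 linked to insulin and beta cells and 13 linked to mTOR signalling. On all 6 arrays, 10 of the 16 lipid miRNAs, 7 of the 14 insulin miRNAs and 8 of the 13 mTOR miRNAs were detected, and miR-100-5p of the mTOR list on 4. Over the whole array 154 of 1247 were detected on all 6, and the lists were not drawn from it at random. The lipid miRNAs detected included miR-103-3p and miR-107-3p, which regulate insulin sensitivity in mouse, miR-27a-3p and miR-27b-3p, and miR-34a-5p. Those at 0 arrays were miR-130b-3p, miR-144-3p, miR-758-3p, miR-335-5p, miR-148a-3p and miR-223-3p. The insulin miRNAs detected were let-7a-5p, let-7b-5p, miR-24-3p, miR-96-5p and the 3 miR-29 members. Those at 0 arrays were miR-143-3p, miR-802-5p, miR-9-5p, miR-124-3p, miR-184-3p, miR-204-5p and miR-152-3p. The mTOR miRNAs detected included miR-99a-5p and miR-99b-5p, which target Mtor, and miR-21a-5p.

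Only 1 list miRNA was called in any of the 6 comparisons. miR-19a-3p, of the mTOR list, was lower with the triple stimuli and rapamycin than with the triple stimuli alone. Its log2 scaled level was 5.42 with high glucose, 5.57 with palmitate, 5.63 in hypoxia, 5.27 with the triple stimuli and rapamycin, 5.87 with the triple stimuli and 5.44 in control cells. The Triple stimuli array was the highest and the Triple stimuli + Rapamycin array the lowest. The difference was -0.60 (spot error 0.05), beside a background of 1.63% of miRNAs called lower. This call was just past 1.5-fold and depended on the scaling. It was made under 3 of 9 alternatives, over which the difference ran from -0.67 to -0.37. With the 75th percentile over all probes it was -0.37, and with no scaling -0.46, and in both 0% of miRNAs were called lower. The mature sequences of miR-19a-3p and miR-19b-3p, with the shared seed in capitals, are given below, because miR-19b-3p is also among the miRNAs closest in pattern to miR-7a-5p.
miR-19a-3p: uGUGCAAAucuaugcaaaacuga
miR-19b-3p: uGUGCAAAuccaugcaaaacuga
miR-19b-3p, of the same list, had a log2 level of 7.83 with the triple stimuli and rapamycin and 8.09 with the triple stimuli, and was not called.

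With high glucose against Control, the lipid list had a median log2 difference of -0.12 over 10 miRNAs, the insulin list 0.04 over 7 and the mTOR list -0.01 over 8, beside -0.05 over all 162 miRNAs. The extremes were miR-29c-3p at 0.38 (spot error 0.07) and miR-99b-5p at -0.32 (0.03). With palmitate the medians were -0.05, 0.0026 and -0.02, in the order lipid, insulin and mTOR, beside -0.03 over all. The extremes there were miR-19a-3p at 0.13 and let-7b-5p at -0.16. In hypoxia the medians were -0.10, -0.01 and -0.06 in that order, beside -0.11 over all. The extremes were miR-29c-3p at 0.31 and miR-99b-5p at -0.23.

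With the triple stimuli against Control the medians were -0.06 for lipid, -0.01 for insulin and 0.02 for mTOR, beside 0.01 over all. The extremes were miR-19a-3p at 0.42 and miR-30c-5p at -0.27. The difference of miR-7a-5p, 0.38, lay just under that of miR-19a-3p. With the triple stimuli and rapamycin against Control the medians were -0.08, -0.12 and -0.12, beside -0.11 over all. The lowest was miR-29b-3p at -0.49, and the highest miR-29c-3p at 0.18. Against the Triple stimuli array the medians were -0.04, -0.05 and -0.13, beside -0.07 over all. The lowest of each list were miR-370-3p at -0.36, miR-29b-3p at -0.47 and miR-19a-3p at -0.60. The highest were miR-26a-5p at 0.05, let-7b-5p at 0.03 and miR-99a-5p at 0.10. Above 0 were 2 of 10 lipid, 1 of 7 insulin and 2 of 9 mTOR miRNAs, beside 47 of 184 over all. The list medians lay within 0.10 of the median over all miRNAs in each comparison.

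**Figure D4:**
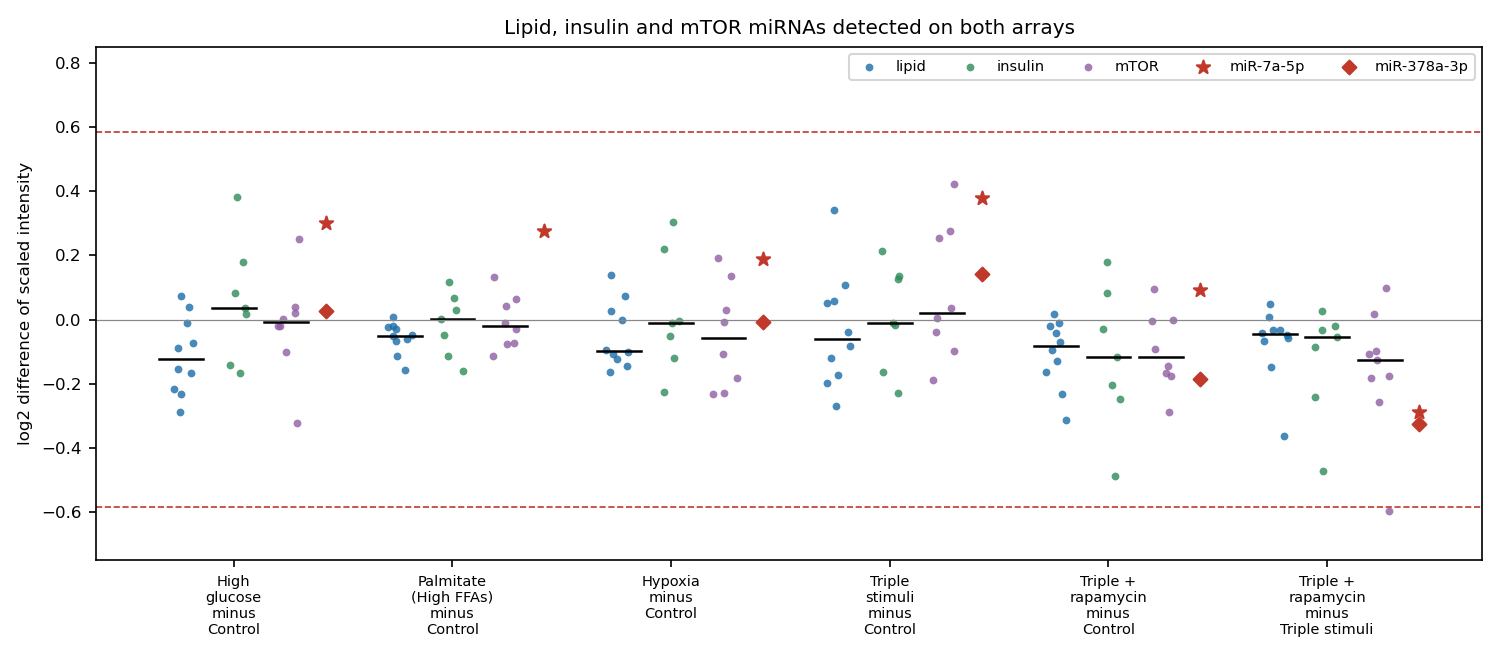
Log2 difference of scaled intensity (vertical axis) of the lipid, insulin and mTOR list miRNAs detected on both arrays in each of the 6 comparisons; points are miRNAs, black bars list medians, red symbols miR-7a-5p and miR-378a-3p, and red dashed lines 1.5-fold. miR-19a-3p in the comparison of rapamycin with the triple stimuli, at -0.60, is the only point past a dashed line, and it is past it under 3 of 9 alternatives.

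The miR-29 members, known repressors of collagens that also act in beta cells, share the seed shown in capitals.
miR-29a-3p: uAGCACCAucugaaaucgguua
miR-29b-3p: uAGCACCAuuugaaaucaguguu
miR-29c-3p: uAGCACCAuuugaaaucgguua
With the triple stimuli and rapamycin against Control, miR-29b-3p was at -0.49 and miR-29c-3p at 0.18, on the log2 scale, and neither passed 1.5-fold. In the limma splits by stimulus, 0 of 10 lipid, 0 of 7 insulin and 0 of 8 mTOR miRNAs were called in any of the 3 splits. Over all 154 miRNAs limma called 8.44% higher and 1.3% lower for high glucose. For oxygen and palmitate it called 0%, so no list miRNA could be called there. The smallest limma adjusted p of a list miRNA was 0.193, for miR-30c-5p (log2 difference -0.20) in the high glucose split. Without the high glucose and palmitate arrays, the splits by high glucose and by palmitate are the same comparison. The count called there was 0 for each list, beside 15 over all miRNAs. The oxygen split then has Control alone on 1 side, and the list medians were -0.06 for lipid, -0.01 for insulin and -0.06 for mTOR, values with no test.

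The miRNAs closest to miR-7a-5p over the 6 arrays were ranked by the root mean square difference of log2 levels, each centred on its own mean, among 153 others detected on all 6 arrays. The closest was miR-26b-5p at 0.07, followed by miR-770-3p, miR-98-5p, miR-5117-3p and miR-19b-3p, each at 0.09. The median over all 153 was 0.17. The range of miR-7a-5p over the 6 arrays was 0.38 on the log2 scale, beside a median range of 0.32, and 61.7% of miRNAs had a smaller range. Centred values of miR-26b-5p were 0.10 with high glucose, 0.0028 with palmitate, 0.04 in hypoxia, -0.12 with the triple stimuli and rapamycin, 0.07 with the triple stimuli and -0.09 in control cells. Those of miR-7a-5p were 0.09, 0.07, -0.02, -0.12, 0.17 and -0.21 over the same arrays in that order. On these 6 arrays a small distance can come from small changes in both miRNAs, and it is given as a description. Without the high glucose and palmitate arrays only 1 of these 5, miR-19b-3p, stayed among the closest 5, which were then miR-21a-5p (0.04), miR-19b-3p (0.06), miR-6238 (0.06), miR-467f (0.07) and miR-350-3p (0.07). The ranking therefore depends on which arrays are used, and leaving out other arrays was not tried.

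**Figure D5:**
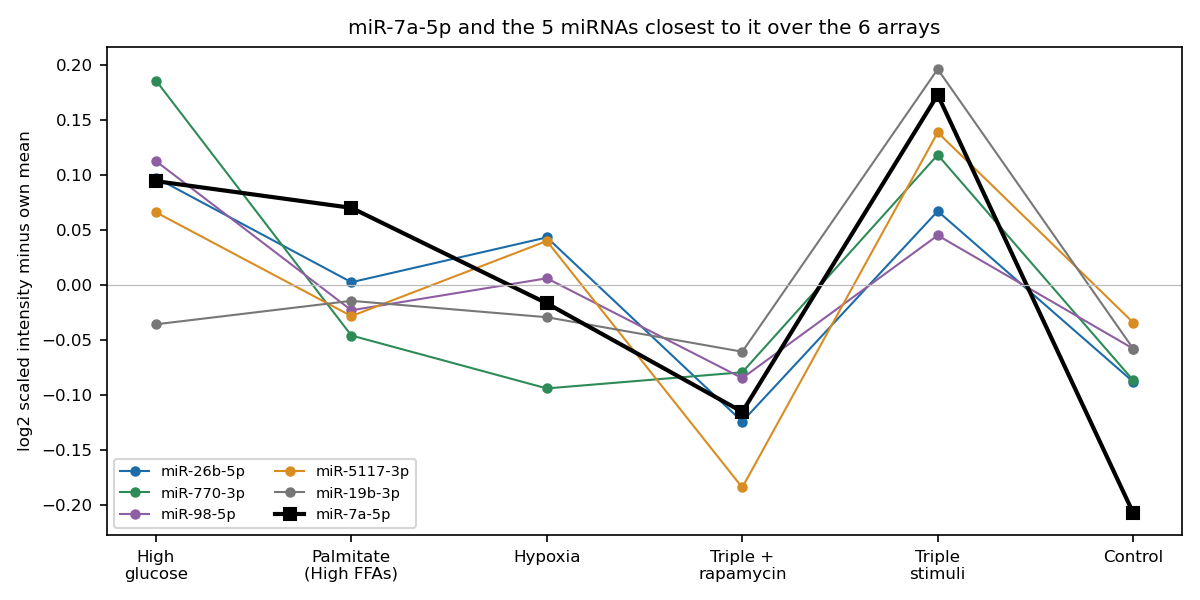
Log2 scaled intensity minus each miRNA's own mean (vertical axis) over the 6 arrays for miR-7a-5p (black) and the 5 miRNAs with the smallest root mean square difference from it; lines join the arrays only to guide the eye. All 6 miRNAs are above their own mean on the Triple stimuli array and below it on the Triple stimuli + Rapamycin and Control arrays.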

How the data were processed

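Total RNA (100 ng per array) was labelled with Cy3 and hybridised, per the labels' protocols. Per the file headers, the arrays were quantified with Agilent Feature Extraction 10.7.3.1, and the deposited intensity values are background-subtracted processed signals on a linear scale with no normalisation between arrays. The deposited table of the authors holds a linear signal per miRNA, which equalled the software's summed signal divided by 1 factor per array, within 0.1%, for 68.7% to 73.5% of those compared with the matching scanner file, and most of its miRNAs lie at each column's lowest value; the choice of that factor is not stated. The values are neither centred nor logged, with a column median, also its lowest value, of 0.00444 (High glucose), 0.00341 (High FFAs), 0.00440 (Hypoxia), 0.00347 (Triple stimuli + Rapamycin), 0.00369 (Triple stimuli) and 0.00475 (Control).

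A probe's value was the mean of its spots not marked as outliers. Each array was divided by a factor, its 75th percentile over 281 probes (those detected everywhere) relative to the geometric mean of these percentiles. The factor ran from 0.873 (Control) to 1.13 (Triple stimuli + Rapamycin). Values under an array's lowest detected signal were set to that signal, and log2 was taken. The brightest probe stood for each miRNA. Splits of 3 against 3 arrays were fitted with limma 3.58.1 in R 4.3.3 over 154 miRNAs. The procedures were also run on simulated data. For comparisons of 2 arrays the simulated spots held no spread between arrays or cultures. That run could not test the rule for such spread. Comparisons of 2 arrays used a 1.5-fold and 2 spot error rule with no test. The errors over spots cover technical spread within an array. Named were the 5 miRNAs, their other arms and near copies, the lists with their extremes, and the 5 miRNAs closest in pattern. The miRNAs and lists were chosen with earlier results of these data known. Alternatives changed the scaling, background, probe summary, spots, filter and labels. Some sequences are not reported here.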

Additional observations from a re-analysis of the deposited data

How the results depend on the processing

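No paired analysis was possible because each condition has 1 array and no replicate numbers are shared. The number of detected miRNAs among the 5 stayed at 2 under every detection rule tried and without the high glucose and palmitate arrays, a setting chosen after seeing the data. The differences of miR-7a-5p in the splits of 3 against 3 arrays turned sign with the scaling for oxygen and high glucose, and for palmitate kept their sign under all 16 alternatives. Not all of these 16 could test the sign. The filter of detection on at least 1 array leaves the value of miR-7a-5p unchanged, and exchanged labels give the high glucose split. For oxygen (0.03) the differences of miR-7a-5p were -0.037 with the 75th percentile over all probes, -0.043 with the median of detected probes and -0.051 with quantile normalisation. For high glucose (0.10) they were -0.0030, -0.064 and -0.015 under the same settings. In no split did an alternative pass the limma threshold. The limma adjusted p ran from 0.817 to 0.993 for oxygen, 0.0740 to 0.983 for high glucose and 0.668 to 0.997 for palmitate. These ranges cover 16 alternatives for high glucose and for palmitate. The oxygen range leaves out the fit with Control alone on 1 side, which limma assumes to vary like the other arrays. Leaving out 1 array in turn gave -0.069 to 0.092 for oxygen, 0.024 to 0.18 for high glucose and 0.0037 to 0.16 for palmitate; the oxygen value was below 0 without the Control array (-0.069) and without the Triple stimuli array (-0.052). The scaling moves the median of all miRNAs: in the high glucose split it was 0.02, against -0.15 with the median of detected probes, -0.12 with quantile normalisation and 0.22 with no scaling, and in the oxygen split -0.02, against 0.11 with no scaling. Relative to that median miR-7a-5p was at 0.05 for oxygen and 0.08 for high glucose. A scaling by 1 factor per array shifts all miRNAs alike and cannot change these 2 values. With quantile normalisation they were -0.02 and 0.11. With no scaling, 2 calls were made among the 5 miRNAs, against 0 otherwise: miR-7a-5p with high glucose (0.59) and with the triple stimuli (0.61). Over all miRNAs the high glucose split gave 15 calls (13 higher, 2 lower), against 48 with no scaling, 39 (8 higher, 31 lower) with the median of detected probes, 23 (6 higher, 17 lower) with quantile normalisation, 5 without the Control array, 6 without the Hypoxia array, 1 without the Triple stimuli + Rapamycin array and 0 with the high glucose and palmitate labels exchanged, when the palmitate split gave 15. Without both of these arrays, the palmitate split gave 15 calls, and is then the same comparison as the high glucose split. The oxygen split gave 1 call with the filter of detection on at least 1 array. Calls over all miRNAs between 2 arrays ranged from 4 to 20 for high glucose, 3 to 11 for palmitate, 1 to 3 for hypoxia, 5 to 20 for the triple stimuli, 11 to 21 for the triple stimuli and rapamycin and 3 to 9 for rapamycin against the triple stimuli. With exchanged labels the log2 difference of miR-7a-5p was 0.28 for high glucose and 0.30 for palmitate. The cause of these changes was not tested.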

Other observations

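Marker miRNAs of blood cells and muscle gave a further description of the RNA. Of 3 blood miRNAs, miR-451a, miR-142-3p and miR-223-3p, 0 were detected on any array. Of 3 muscle miRNAs, miR-206-3p was detected on all 6 arrays, and miR-1a-3p and miR-133a-3p on none. The log2 scaled level of miR-206-3p, known from skeletal muscle, was 6.47 with high glucose, 6.66 with palmitate, 6.67 in hypoxia, 6.62 with the triple stimuli and rapamycin, 6.75 with the triple stimuli and 6.75 in control cells.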
